A study of Mus musculus with 6 samples.

Results

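Genes of the skeletal muscle sarcomere and of its calcium handling were examined in whole mammary glands of WT and Hpn-/- mice. The set holds 39 genes of the 55450 in the count table, chosen by their GENCODE M21 symbols. It takes in 6 myosin heavy chains, 3 myosin light chains, the skeletal actin Acta1, 6 troponins, 4 giant and myosin-binding proteins, 8 genes of the Z-disc and cytoskeleton, 7 of calcium release and uptake, and 4 of energy and oxygen supply. The glands came from virgin females on the FVB background, 3 WT and 3 Hpn-/- made with CRISPR/Cas9. Hpn encodes the serine protease hepsin. The WT glands were taken at 2 weeks of age (replicate 1), 6 weeks (replicate 2) and 5 weeks (replicate 3). The Hpn-/- glands were taken at 6 weeks (replicates 1 and 2) and 5 weeks (replicate 3). The 2-week age was thus present in WT alone, and the labels name no agent given to either group.

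In a muscle fibre, myosin thick filaments pull on actin thin filaments inside the sarcomere, and troponin on the thin filament makes this depend on calcium. Calcium leaves the sarcoplasmic reticulum through the ryanodine receptor Ryr1 when the voltage sensor Cacna1s responds to the surface membrane, and the pump Atp2a1 returns it. Slow and fast fibres use different genes for many of these proteins, and embryonic and perinatal fibres use the myosins Myh3 and Myh8. Muscle fibres are not a cell type of the mammary epithelium or fat pad, and in the mouse the glands lie under the skin near the sheet muscles of the body wall.

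Each library held 10971661 to 18807615 counts, of which 78.0% to 84.3% lay in loci derived from ribosomal RNA, leaving 1798932 to 3071401 counts for other genes. Counts of Hpn itself were 12, 6 and 4 in the WT libraries and 4, 3 and 5 in the Hpn-/- libraries, each in the order of replicates 1, 2 and 3. They were too few to separate the genotypes, and the groups overlapped at 4 counts. Markers of the labelled tissue were present in every library. The 10 adipocyte genes summed to between 1930 and 2287 CPM (counts scaled to library size, with library sizes adjusted by TMM), and the 12 luminal epithelial genes to between 89.2 and 125 CPM. No pair of libraries of a group agreed within sampling noise. Each sample had its own identifier, and ages differed within both genotypes, but the labels do not state that every sample was a separate animal. The p-values cover the spread among the sequenced samples. Of the 12 markers of muscle fibres, 11 had counts in every library, and Myh7 had counts in 1.

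Muscle genes were counted in every gland, although Myh3 had no counts at all and Myh7, Myl2 and Sln had counts in 1 gland each. The summed level of the 39 genes spread more widely between glands of a genotype than between the genotype means. Together they held 21931 counts in WT replicate 1, which was 0.912% of the counts outside ribosomal loci (exact Clopper-Pearson 95% interval 0.900% to 0.924%). WT replicates 2 and 3 held 3616 and 1843 counts, or 0.201% and 0.0862%. Hpn-/- replicate 1 held 38356 counts, or 1.43% (1.42% to 1.44%), replicate 2 held 6967, or 0.374%, and replicate 3 held 902, or 0.0294% (0.0275% to 0.0314%). The share was highest and lowest in 2 Hpn-/- glands, with all 3 WT glands between them, so the groups overlapped fully. Intervals cover counting error only, since reads without molecular identifiers are not independent molecules. In whole-gland RNA, fewer muscle fibres and less RNA per fibre cannot be told apart.

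Glands of the same genotype and age also differed. Hpn-/- replicate 1 held 3.82 times the share of Hpn-/- replicate 2, both 6 weeks old, and 48.7 times that of the 5-week Hpn-/- replicate 3. The 2-week WT replicate 1 held 10.6 times the share of the 5-week WT replicate 3. At 6 weeks both Hpn-/- libraries were above the WT library, by 7.11 and 1.86 times, whereas at 5 weeks the Hpn-/- library was at 0.341 times the WT library. The mean share was 0.400% ± 0.447 in WT and 0.611% ± 0.729 in Hpn-/- (SD, n = 3 each), a difference smaller than either SD.

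**Figure D1:**
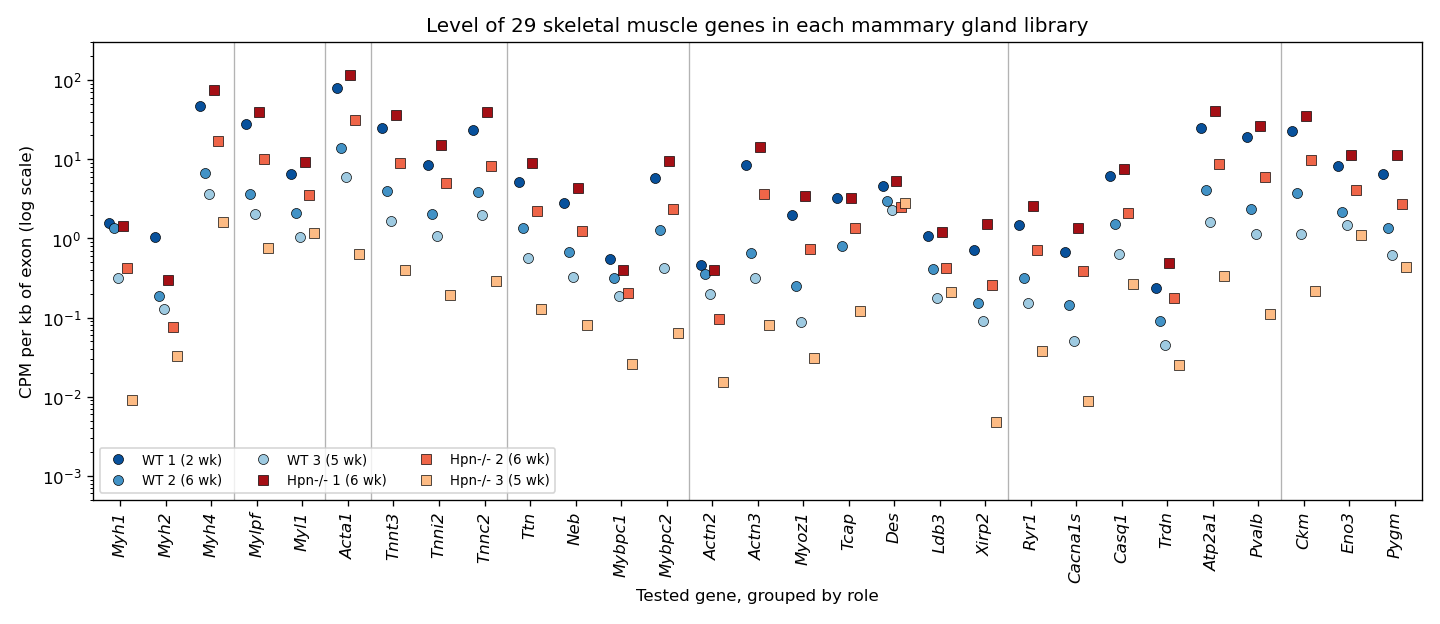
Level of each of the 29 tested muscle genes in each of the 6 libraries, as CPM per kb of exon on a log scale, with genes grouped by role (vertical lines). Circles are WT and squares Hpn-/-, each labelled by age. Hpn-/- replicate 1 is highest for 24 genes and Hpn-/- replicate 3 lowest for 25, and Tcap in WT replicate 3 is at 0 and is left out.

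Myosin heavy chains set the speed of contraction. In the fast fibres of the mouse they are Myh4 (type 2B), Myh1 (type 2X) and Myh2 (type 2A), and in slow fibres Myh7. Myh2, Myh1, Myh4 and Myh8 lie side by side on chromosome 11 (GRCm38, plus strand), with Myh2 at chr11:67171027-67197517, Myh1 at chr11:67200052-67224575, Myh4 at chr11:67238029-67260446 and Myh8 at chr11:67277124-67308634. The stretches of 250 bases before the first listed RefSeq start (GRCm38.p6) of the 3 fast genes are shown because the libraries differed in the proportions of these genes. Capitals mark E-boxes (CANNTG), TATA boxes (TATAAA, searched on both strands, so TTTATA is the reverse match) and CArG boxes.
Myh2, chr11:67170777-67171026, plus strand: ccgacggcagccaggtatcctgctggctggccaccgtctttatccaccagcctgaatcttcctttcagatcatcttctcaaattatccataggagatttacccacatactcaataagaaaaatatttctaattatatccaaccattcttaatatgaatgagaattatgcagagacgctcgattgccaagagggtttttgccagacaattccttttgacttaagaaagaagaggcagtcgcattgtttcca
Myh1, chr11:67199852-67200101, plus strand: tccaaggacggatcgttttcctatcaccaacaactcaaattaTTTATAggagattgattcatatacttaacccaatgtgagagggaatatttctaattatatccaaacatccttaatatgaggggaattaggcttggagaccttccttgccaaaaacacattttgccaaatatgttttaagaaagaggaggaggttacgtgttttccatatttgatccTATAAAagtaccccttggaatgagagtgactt
Myh4, chr11:67237562-67237811, plus strand: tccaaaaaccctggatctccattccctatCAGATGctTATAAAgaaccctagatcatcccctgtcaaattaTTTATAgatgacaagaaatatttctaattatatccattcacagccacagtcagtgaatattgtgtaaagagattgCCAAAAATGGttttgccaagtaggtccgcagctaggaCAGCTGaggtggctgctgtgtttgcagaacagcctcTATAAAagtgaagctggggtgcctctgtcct
In these windows Myh4 held 2 E-boxes, 3 TATA matches and 1 CArG box, Myh1 held 2 TATA matches only, and Myh2 held none of the motifs. The windows do not line up. That of Myh2 ends in letters like those just before the last TATA match of Myh1, and letters past its end were not searched. A lack of matches in this window is thus not a lack of a TATA box in Myh2. A match is a description of letters and not a site of binding.

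Myh4 dominated the myosin heavy chain counts in every library. Its level was 46.6, 6.77 and 3.60 CPM per kb in WT replicates 1, 2 and 3 and 74.1, 17.2 and 1.60 in Hpn-/- replicates 1, 2 and 3, with the extremes again in 2 Hpn-/- glands. Myh1 was at 1.58, 1.35 and 0.317 CPM per kb in WT and at 1.45, 0.419 and 0.00917 in Hpn-/-, the last from a single count. The level of Myh2 was 1.05, 0.188 and 0.129 CPM per kb in WT and 0.296, 0.0771 and 0.0327 in Hpn-/-. Both were highest in the 2-week WT gland and lowest in Hpn-/- replicate 3, and the groups overlapped. Myh7 had 48 counts in WT replicate 1 and 0 in the other 5 libraries. Myh8, the perinatal chain, had 1, 0 and 0 counts in WT and 3, 1 and 0 in Hpn-/-, and Myh3, the embryonic chain, had 0 in all 6.

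As shares of the counts of all 6 heavy chains, Myh4 made up 93.0%, 80.4% and 88.1% in the WT libraries and 97.5%, 96.9% and 97.1% in the Hpn-/- libraries. Myh1 made up 3.33% (exact 95% interval 2.81% to 3.92%), 17.0% (13.9% to 20.5%) and 8.19% (5.32% to 11.9%) in WT. In Hpn-/- its share was 2.01% (1.69% to 2.37%), 2.49% (1.67% to 3.56%) and 0.588% (0.0149% to 3.23%). Every WT gland thus had more Myh1 relative to the other chains than any Hpn-/- gland, but the intervals of Hpn-/- replicates 2 and 3 reached into that of WT replicate 1. The share of Myh2 was 2.48%, 2.64% and 3.75% in WT against 0.463%, 0.515% and 2.35% in Hpn-/-. Myh7 made up 1.13% (0.838% to 1.5%) in WT replicate 1. Taking 3 counts as the limit, its 0 counts in the other libraries allow shares up to 0.566% and 1.02% in WT replicates 2 and 3, and up to 0.0434%, 0.258% and 1.76% in the Hpn-/- libraries. The upper ends of the exact intervals were 0.694% and 1.25% in WT and 0.0533%, 0.316% and 2.15% in Hpn-/-. A share like that of WT replicate 1 was thus not detectable at the 170 heavy chain counts of Hpn-/- replicate 3, nor, by the exact interval, at the 293 of WT replicate 3.

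**Figure D2:**
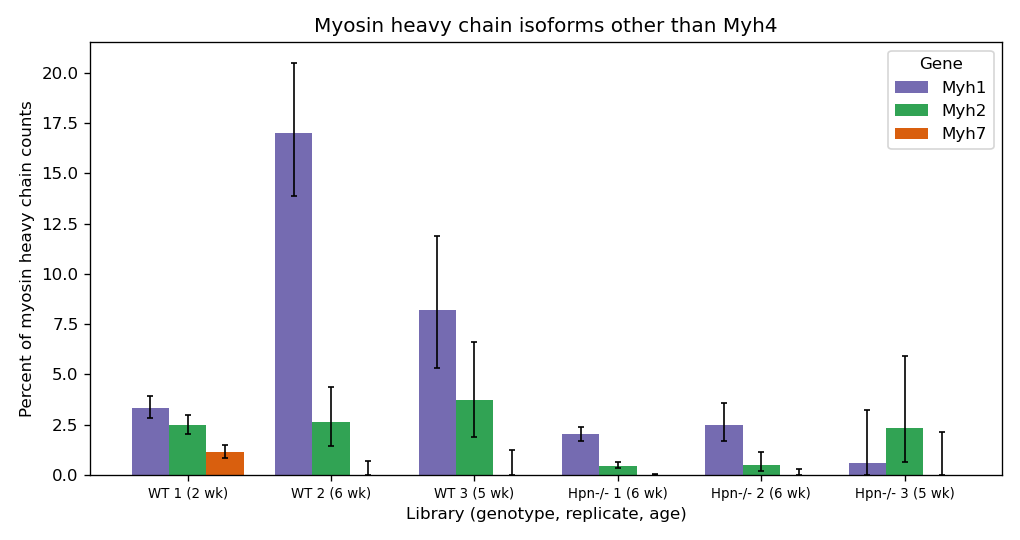
Share of Myh1, Myh2 and Myh7 in the counts of all 6 myosin heavy chains in each library, in percent, with exact 95% intervals as bars. The Myh1 bars are 3.33%, 17.0% and 8.19% in WT and at most 2.49% in Hpn-/-, and Myh7 is above 0 in the 2-week WT library alone.

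Near-identical stretches limit these values. Of the 75-base windows of its exons, the share found in another gene was 20.9% for Myh1, 15.5% for Myh2, 9.68% for Myh4 and 13.6% for Myh7, and other myosin genes were among the partners of all 4. How reads with several matches were counted was not given. Myh1 also overlaps the antisense gene Myhas by 515 bases, and Myh7 overlaps antisense genes by 1149. Counting by strand is not stated, so reads of antisense partners cannot be told apart. In WT replicate 1, where Myh7 was counted, its cardiac relative Myh6 had 7 counts, with 0 in the other libraries, and Actc1, the cardiac actin, had 2, with 0 in the other libraries. The slow and cardiac regulatory light chain Myl2 likewise had 8 counts there and 0 elsewhere. Other heart genes were not confined to that library. Tnnt2 had 2, 2 and 0 counts in WT and 1, 0 and 3 in Hpn-/-. Tnni3 had 1, 3 and 4 against 2, 2 and 2, and Myl4 had 13, 2 and 11 against 12, 2 and 13. Mybpc3 had 1, 0 and 0 against 0, 0 and 1, and Myl7, Nppa, Nppb and Tnni3k had 0 in all libraries. The part of heart genes in the Myh7 counts was not tested.

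The fast regulatory light chain Mylpf was the most abundant light chain, at 28.1, 3.60 and 2.05 CPM per kb in WT and 39.3, 10.1 and 0.768 in Hpn-/-. Myl1, the fast essential light chain, ranged from 1.05 in WT replicate 3 to 9.34 in Hpn-/- replicate 1. Mylpf followed the ranking of Myh4, whereas Myl1 was a little lower in WT replicate 3 than in Hpn-/- replicate 3. Of the exon windows of Myl1, 8.08% also occur in its pseudogene Mylf-ps.

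Acta1, which encodes the actin of the skeletal thin filament, had the highest level per kb of the set on average. The 250 bases upstream of its RefSeq start, on the minus strand of GRCm38.p6, are shown because its level is the yardstick used for the other genes, and those of Ckm because the ratio of Ckm to Acta1 varied little. Capitals mark the same motifs as above.
Acta1, chr8:123894776-123895025, minus strand: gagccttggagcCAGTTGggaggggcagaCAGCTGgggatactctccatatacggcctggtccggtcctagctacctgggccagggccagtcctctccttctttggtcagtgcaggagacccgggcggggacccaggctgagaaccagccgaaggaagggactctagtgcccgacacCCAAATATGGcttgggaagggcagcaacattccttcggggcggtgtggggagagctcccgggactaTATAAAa
Ckm, chr7:19410844-19411093, plus strand: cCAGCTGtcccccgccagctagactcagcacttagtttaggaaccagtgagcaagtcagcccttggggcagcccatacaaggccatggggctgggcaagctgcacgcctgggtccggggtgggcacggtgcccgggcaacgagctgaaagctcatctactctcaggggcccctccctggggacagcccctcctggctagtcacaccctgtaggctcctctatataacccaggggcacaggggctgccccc
The Acta1 window held 2 E-boxes, 1 CArG box and 1 TATA match, and the Ckm window held 1 E-box. Of the 39 genes, 30 had a RefSeq promoter in the table used. An E-box was present in 25 of the 30 (83.3%) against 66.0% of all 27025 promoters, a TATA match in 7 (23.3%) against 13.0%, a CArG box in 3 against 1.4%, and a MEF2 motif (CTANNNNTAG) in 2 (6.67%) against 3.23%.

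Acta1 stood at 78.6, 13.9 and 5.95 CPM per kb in WT replicates 1, 2 and 3 and at 115, 31.2 and 0.645 in Hpn-/- replicates 1, 2 and 3. The WT levels lay inside the span of the Hpn-/- levels, whose lowest rested on 17 counts.

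The troponins confer calcium dependence, with troponin T (Tnnt3 fast, Tnnt1 slow) binding tropomyosin, troponin I (Tnni2, Tnni1) inhibiting, and troponin C (Tnnc2, Tnnc1) binding calcium. Tnnc2 was at 23.4, 3.82 and 1.99 CPM per kb in WT and 39.7, 8.25 and 0.291 in Hpn-/-. Tnnt3 was at 24.9, 3.99 and 1.64 in WT and 36.8, 9.09 and 0.405 in Hpn-/-, and Tnni2 at 8.42, 2.04 and 1.07 against 15.2, 5.08 and 0.195. All 3 fast troponins ranked the libraries as Myh4 did. Tnnc2 overlaps the antisense gene Ube2c by 592 of its 800 exon bases and shares 35.0% of its exon windows with it. The slow members were near the limit of detection. Tnnt1 had 8, 1 and 5 counts in WT and 1 in each Hpn-/- library, Tnni1 had 3, 0 and 0 against 2, 0 and 1, and Tnnc1 had 9, 2 and 3 against 2, 0 and 1.

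Ttn, the spring protein titin that runs from the Z-disc to the middle of the sarcomere, took the largest part of the counts because its exons sum to 116825 bases. It made up 38.4%, 46.2% and 42.4% of the set's counts in WT and 41.8%, 40.8% and 28.7% in Hpn-/-. Per kb it was at 5.13, 1.37 and 0.561 CPM in WT and 9.07, 2.23 and 0.129 in Hpn-/-. Neb, the thin filament ruler nebulin, ranged from 0.0811 to 4.395 CPM per kb between the same 2 Hpn-/- libraries. Mybpc2, the fast myosin-binding protein C, was at 5.78, 1.30 and 0.418 CPM per kb in WT and 9.66, 2.39 and 0.0646 in Hpn-/-. The slow Mybpc1 was at 0.550, 0.317 and 0.185 in WT and 0.394, 0.203 and 0.0258 in Hpn-/-. Mybpc2 followed Myh4, whereas Mybpc1 was highest in the 2-week WT gland, like Myh1 and Myh2.

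At the Z-disc, the alpha-actinins crosslink actin, with Actn3 kept to fast fibres and Actn2 in all fibres. Actn3 was at 8.54, 0.659 and 0.318 CPM per kb in WT and 14.3, 3.70 and 0.0804 in Hpn-/-. Actn2 was at 0.469, 0.353 and 0.199 in WT and 0.401, 0.0967 and 0.0154 in Hpn-/-. The fast gene was thus far higher than its partner in WT replicate 1 and Hpn-/- replicates 1 and 2, and closer to it in WT replicates 2 and 3. Des, the intermediate filament desmin that smooth muscle also makes, moved least of all, at 4.59, 2.95 and 2.28 CPM per kb in WT and 5.33, 2.49 and 2.84 in Hpn-/-. The calcineurin-binding Z-disc protein Myoz1 ranged from 0.0308 to 3.46 CPM per kb and the actin-binding Xirp2 from 0.00487 to 1.54, both lowest in Hpn-/- replicate 3 and highest in Hpn-/- replicate 1. Ldb3, a PDZ-LIM protein of the Z-disc, ranged from 0.179 in WT replicate 3 to 1.22 in Hpn-/- replicate 1. The titin cap Tcap ran from 0 counts in WT replicate 3 to 3.23 CPM per kb in WT replicate 1. Myot, with 26, 8 and 4 counts in WT and 44, 8 and 1 in Hpn-/-, fell under the count filter.

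Among the calcium genes the pump Atp2a1 was the most abundant, at 24.7, 4.12 and 1.62 CPM per kb in WT and 40.7, 8.83 and 0.335 in Hpn-/-. The voltage sensor Cacna1s was at 0.674, 0.146 and 0.0512 in WT and 1.36, 0.392 and 0.00890 in Hpn-/-, the last from a single count. Ryr1 ranged from 0.0374 to 2.55 CPM per kb, the calcium store protein Casq1 from 0.269 to 7.49, its anchor triadin (Trdn) from 0.0249 to 0.488 and the fast-fibre calcium buffer Pvalb from 0.112 to 26.02. All 6 tested calcium genes ranked the libraries alike, from Hpn-/- replicate 1 down to Hpn-/- replicate 3. Sln, the regulator of the pump found in slow and atrial muscle, had 3 counts in WT replicate 2 and 0 in the other libraries. Atp2a1 shares 15.8% of its exon windows with the antisense gene Rabep2, and Cacna1s shares 14.3% with Gm37759.

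Ckm, the muscle creatine kinase, led the energy genes at 22.6, 3.81 and 1.15 CPM per kb in WT and 35.2, 9.70 and 0.220 in Hpn-/-. The muscle enolase Eno3 ranged from 1.11 to 11.3 and the muscle glycogen phosphorylase Pygm from 0.435 to 11.4, both with the same extremes. Mb, the oxygen store myoglobin of oxidative fibres, had 15, 6 and 5 counts in WT and 9, 2 and 1 in Hpn-/- and was under the count filter.

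Most members ranked the glands alike. The order Hpn-/- replicate 1, WT replicate 1, Hpn-/- replicate 2, WT replicate 2, WT replicate 3, Hpn-/- replicate 3 held in 21 of the 29 tested members (72.4%), against 51 of all 12520 tested genes (0.407%), which include those 21. This is the order of the summed share of the set itself, so setting the members against all genes is no test. The highest library was Hpn-/- replicate 1 for 24 members and WT replicate 1 for 5, namely Myh1, Myh2, Mybpc1, Actn2 and Tcap. The lowest was Hpn-/- replicate 3 for 25 and WT replicate 3 for Myl1, Tcap, Des and Ldb3. The highest library exceeded the lowest by a median of 69.3-fold over 28 members, from 2.34-fold for Des to 316-fold for Xirp2, against 1.54-fold over all genes. Members under the filter are not in these counts, and a count of the order is a description of these 6 libraries.

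Relative to Acta1 in the same library, many fast genes held similar proportions in the 5 libraries other than Hpn-/- replicate 3, and a few did so in all 6 libraries. The ratio of Ckm to Acta1, per kb, was 0.288, 0.274 and 0.194 in WT and 0.305, 0.311 and 0.341 in Hpn-/-. That of Pvalb was 0.240, 0.172 and 0.190 against 0.226, 0.189 and 0.174. Over the 5 libraries other than Hpn-/- replicate 3, the ratio stayed within 2-fold for 16 of 28 members and varied more for Myh1, Myh2, Myl1, Mybpc1, Actn2, Actn3, Myoz1, Des, Ldb3, Trdn and Eno3, while Tcap was at 0 in WT replicate 3. Leaving out that library was chosen after the values were seen. In Hpn-/- replicate 3, with 17 Acta1 counts, many genes stood high against Acta1. Mylpf, Tnni2, Ttn, Neb, Ryr1, Casq1 and Pygm were among them, whereas Pvalb and Xirp2 were not. The Myh4 ratio of that library was 2.48 against 0.488 to 0.643 in the other libraries, its Myl1 ratio 1.83 against 0.0811 to 0.177, its Eno3 ratio 1.71 against 0.0977 to 0.251, and its Des ratio 4.40 against 0.0463 to 0.383.

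**Figure D3:**
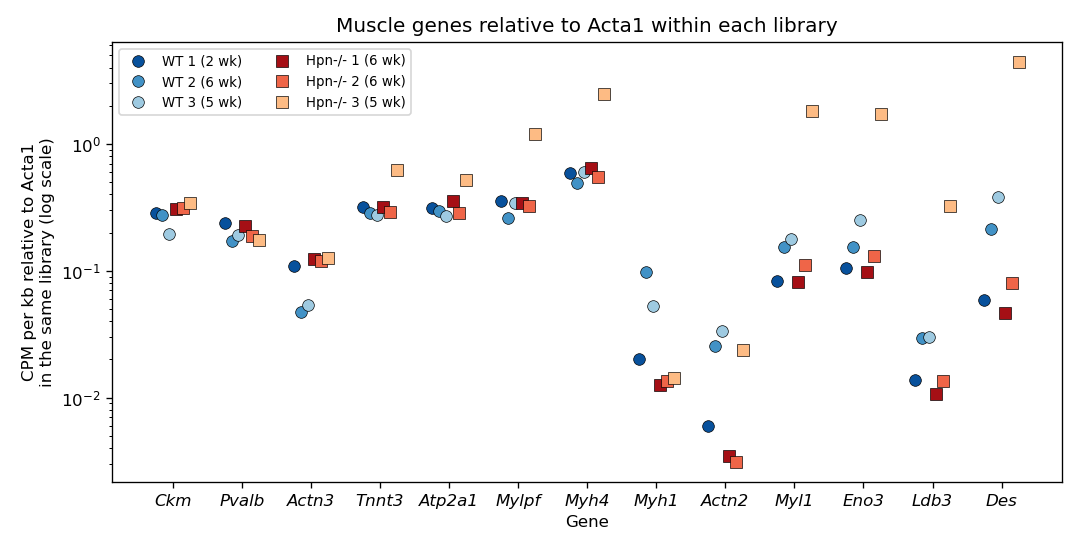
Level per kb of 13 muscle genes divided by that of Acta1 in the same library, on a log scale. Circles are WT and squares Hpn-/-. Ckm and Pvalb stay between 0.172 and 0.341 in all 6 libraries, Myh1 and Actn2 spread widely, and Myl1, Eno3 and Des stand far above the rest in Hpn-/- replicate 3.

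Between genotypes no member passed the test. Of the 39 genes, 29 passed the count filter and 10 did not (Myh3, Myh7, Myh8, Myl2, Tnnt1, Tnni1, Tnnc1, Myot, Sln and Mb). By edgeR's quasi-likelihood test with Benjamini-Hochberg adjustment over all 12520 tested genes, 0 of 29 were called in either direction, against 2 genes called in all, both higher (0.016%), and none lower (0.0%). At an unadjusted p under 0.05 there were 0 members by edgeR and 0 by DESeq2, against 861 and 495 genes in all. There were 8 members (1139 of 12520 genes) in edgeR with the replicate block, and 6 of 38 members (1541 of 25242 genes) with no count filter. In the unfiltered fit the smallest adjusted p of a member was 0.271 by edgeR, for Myl2. The WT and Hpn-/- levels were without overlap in 0 of 29 members, against 11.0% of all tested genes.

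The estimate was higher in Hpn-/- for 25 members and lower for 4, with a median log2 fold change of 0.58 against 0.0047 over all genes. Leaving out Hpn-/- replicate 1 turned this median to -1.11, and leaving out WT replicate 1 raised it to 2.24. Acta1 averaged 50.4 ± 61.2 CPM in WT and 75.2 ± 91.1 in Hpn-/- (SD, n = 3 each). Its log2 fold change was 0.57, with a standard error (SE) of 1.83 and an adjusted p of 0.985 by edgeR. For Myh4 the estimate was 0.70 (SE 1.71, adjusted p 0.978 by edgeR). The largest positive estimate was that of Cacna1s, 0.93 (SE 1.54, adjusted p 0.965 by edgeR), and the sign of all 3 turned without Hpn-/- replicate 1. The SE exceeded the size of the fold change in 26 of 29 members. It was worked back from the fold change and edgeR's test statistic, so this count is no separate measure of precision.

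The 4 genes with lower estimates in Hpn-/- were Myh2, Actn2, Mybpc1 and Myh1. Myh2 averaged 3.25 ± 3.67 CPM in WT and 0.966 ± 1.01 in Hpn-/-. Its estimate was -1.79 on the log2 scale (SE 1.24), and the adjusted p of 0.886 by edgeR was the smallest of the set. Fitting the replicate number as a block gave Myh2 an adjusted p of 0.0342 by edgeR, although the numbers were not shown to pair the samples. Actn2 had -0.996 (SE 0.81, adjusted p 0.902 by edgeR), Mybpc1 -0.82 (SE 0.78, adjusted p 0.920) and Myh1 -0.80 (SE 1.28, adjusted p 0.963). No direction turned when any 1 library was left out, but the sizes moved. Myh2 was at -0.205 without WT replicate 1 and -3.22 without Hpn-/- replicate 1. Without Hpn-/- replicate 3, Actn2 was at -0.37, Mybpc1 at -0.22 and Myh1 at -0.171, and without Hpn-/- replicate 1 they were at -2.8, -1.86 and -2.61.

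**Figure D4:**
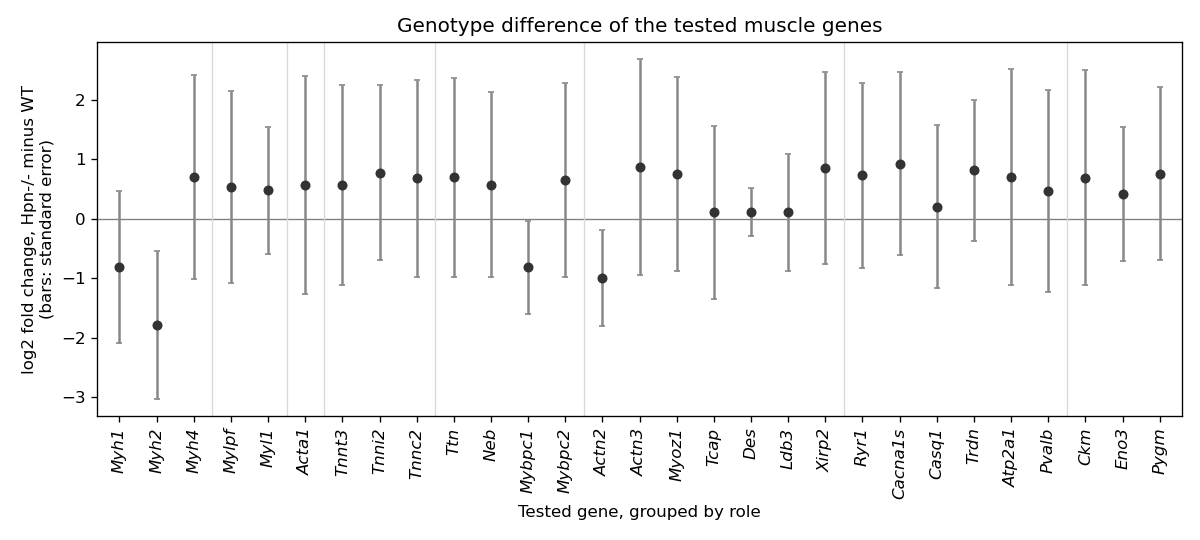
log2 fold change (Hpn-/- minus WT) of each tested muscle gene, grouped by role, with bars of 1 standard error. The errors were worked back from the test statistic of edgeR's quasi-likelihood fit on 3 libraries a group. Of 29 points, 25 lie above 0 and 4 below, and none passed the adjusted threshold.

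The spread behind these errors was that of the set itself. The median biological coefficient of variation, the relative spread between libraries of a genotype, was 1.24 for the tested members against 0.142 for all genes. Of the 29, 28 were among the 125 genes of highest variation, the top 1%, and the exception was Des at 0.338. Standard errors of the log2 fold changes ran from 0.41 for Des to 1.83 for Acta1, with a median of 1.56 against 0.19 for all genes.

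A ratio between isoforms within a library does not depend on library size. A set of 10 ratios were compared, each as the log2 of levels per kb with 0.5 count added, by exact two-sided permutation tests that cannot go under 0.1 with 3 against 3 libraries. Myh4 over Myh1 and Myh2 together was 4.15, 2.13 and 2.99 in WT and 5.41, 5.10 and 5.12 in Hpn-/-, on the log2 scale. The Hpn-/- values all lay above the WT values, a mean of 5.21 ± 0.17 against 3.09 ± 1.01 (SD, n = 3 each), with an exact p of 0.1, the smallest possible, and 0.5 after Benjamini-Hochberg adjustment over the 10. With each library left out in turn the difference was 1.64 to 2.65. The 2.65 came without WT replicate 1, which leaves the 5 and 6 week libraries alone. The ratio of Hpn-/- replicate 3 rested on 1 Myh1 and 4 Myh2 counts. As a share of the fast chain counts, its Myh4 had an exact 95% interval of 93.3% to 99.0%. That interval covered the 93.4% to 94.8% of WT replicate 1.

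Myh2 over Myh1 and Myh4 was -5.52, -5.39 and -4.86 in WT and -7.97, -7.72 and -5.46 in Hpn-/-, a difference of -1.80 on the log2 scale (exact p = 0.2). The overlap came from the added 0.5 count, acting on 4 Myh2 counts in Hpn-/- replicate 3. With no count added, a setting chosen after the values were seen, the ratio was -5.52, -5.44 and -4.92 in WT and -7.99, -7.84 and -5.62 in Hpn-/-, without overlap (exact p = 0.1). Of the 5 ratios with counts in every library, 2 were then without overlap, this one and that of Myh4.

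The other 8 ratios overlapped between the groups with the 0.5 count added. Actn2 over Actn3 differed by -2.16 (exact p = 0.2) and Myh7 over the fast chains by -2.57 (exact p = 0.3). Myl2 over Mylpf differed by -1.78, Tnnt1 over Tnnt3 by -1.61, Tnnc1 over Tnnc2 by -1.79 and Mybpc1 over Mybpc2 by -0.91, each with an exact p of 0.4. With 1 library left out these last 4 differences ran from -3.19 to -0.47, from -3.29 to -0.155, from -3.73 to -0.725 and from -1.87 to -0.162. The ratio of Myh2 and the 6 above had an adjusted p of 0.5 by the exact permutation tests. Tnni1 over Tnni2 differed by 0.20 (exact p = 1.0) and the developmental chains Myh3 and Myh8 over the others by 0.42 (exact p = 0.7). Counts of the slow genes were so low that the added 0.5 count sets many of these values. Actn2 counts, as a share of both actinins, were 6.70%, 41.2% and 45.0% in WT and 3.54%, 3.31% and 20.0% in Hpn-/-, the last from 5 counts.

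Genes of the same machinery outside the set gave no call either. Of 40 other sarcomere genes, 18 were tested and 0 called, 12 with a higher and 6 with a lower estimate, and a median log2 fold change of 0.16. Of the 18, 5 followed the full library order of the set. Tpm2, a tropomyosin also made by smooth muscle, was the most abundant of them per kb, at 29.6, 9.65 and 7.55 CPM in WT and 37.3, 11.8 and 5.07 in Hpn-/-. Of 28 further genes of excitation, contraction coupling and calcium, 18 were tested and 0 called, 9 in each direction. Among them Atp2a2, the calcium pump of slow, heart and non-muscle cells, was at 48.1, 61.2 and 56.3 CPM in WT and 50.9, 41.3 and 53.3 in Hpn-/-. Of 24 further genes of muscle energy supply, 20 were tested and 0 called, 11 higher and 9 lower. The smallest p of these 3 lists belonged to Obsl1, Trpc1 and Ppp1r3c, with log2 fold changes of -0.41, 0.72 and -0.31 and adjusted p-values of 0.635, 0.769 and 0.839 by edgeR.

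Markers of other cell types did not share the range of the set. The 14 smooth muscle and myoepithelial genes summed to 117, 87.5 and 97.4 CPM in WT and 113, 90.4 and 104 in Hpn-/-, and their Acta2, smooth muscle actin, was at 13.9 ± 1.86 CPM in WT and 14.6 ± 1.06 in Hpn-/- (SD, n = 3 each). The 10 heart genes summed to between 0.367 and 1.85 CPM, with 4 of them at 0 in all libraries. The 10 brown fat genes summed to 224, 398 and 505 CPM in WT and 233, 325 and 379 in Hpn-/-, and without Ucp1, the uncoupling protein of brown fat, to 136, 148 and 215 in WT and 96.5, 121 and 192 in Hpn-/-. Ucp1 was at 87.7, 249.7 and 290.0 CPM in WT and 136, 203 and 187 in Hpn-/-, lowest in WT replicate 1 and Hpn-/- replicate 1. The brown fat genes did not all share this order. Satellite cell markers were nearly undetected, with Pax7 at 1 count in WT replicate 1 and Myf5 at 0 in all libraries. The part of these cell types in the muscle results was not tested.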

How the data were processed

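Total RNA of whole glands was depleted of ribosomal RNA and made into directional single-end libraries, per the labels' protocols. The authors deposited raw counts of reads per gene for 6 libraries. Alignment with STAR 2.6.0c to GRCm38 and counting with featureCounts are named in the submitters' processing notes, as are bcl2fastq, Trimmomatic and DESeq2. Strand setting and treatment of reads with several matches were not given. GENCODE M21 matched all 55450 identifiers.

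The fit used edgeR 4.0.16 under R 4.3.3 (filterByExpr with minimum count 10 and total 15, TMM, robust quasi-likelihood fit on genotype, Benjamini-Hochberg over 12520 genes, called under 0.05), which was tested on simulated data. DESeq2 1.42.0 was an alternative. Levels per kb divide TMM-scaled CPM by the union of exons. Shares carry exact 95% intervals, and a count of 0 was given a limit of 3 counts. Named genes were the most abundant of each role, members of isoform ratios and the 3 largest fold changes. The members, lists and ratios were chosen with earlier results of these data known. Of the listed symbols, 1 was ambiguous and left out. Promoters are from RefSeq.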

Additional observations from a re-analysis of the deposited data

How the results depend on the processing

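No member was called under any alternative except Myh2, called lower with the replicate block (1 member, adjusted p 0.0342 by edgeR). Same-numbered samples correlated at 0.167, 0.0732 and 0.368 in their deviations from the group means. Samples of different numbers ran from -0.291 to 0.127. Each Hpn-/- library correlated most with the WT library of its number. For Hpn-/- replicate 2 the margin was small, 0.0732 against 0.0671 with WT replicate 1. From the WT side this did not hold. WT replicate 2 correlated more with Hpn-/- replicate 1 (0.127) than with Hpn-/- replicate 2 (0.0732). Replicates 2 and 3 also shared an age across genotypes, and replicate 1 did not. The labels do not state a pairing, so the block was kept as an alternative, and whether the numbers pair the samples was not settled. Of 210 alternative values for member fold changes, 198 kept direction and side of the threshold, 11 turned and 1 passed it; the cause was not tested. The 11 that turned all came without Hpn-/- replicate 1.

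Over all genes, the count called higher was 76 with no count filter, 8 with DESeq2, 8 with the replicate block, 0 with age as a covariate and 0 to 89 when each library was left out. The count called lower was 24 with no filter, 1 with the block, 1 in the 5 and 6 week libraries with age as a covariate, and 0 to 111 when each library was left out. The members' median log2 fold change ran from -1.11 without Hpn-/- replicate 1 to 2.24 without WT replicate 1. Between the same settings Myh4 ran from -1.05 to 2.58, Mylpf from -1.25 to 2.57, Acta1 from -1.11 to 2.31, Tnnt3 from -1.28 to 2.47, Tnni2 from -0.77 to 2.15, Tnnc2 from -1.43 to 2.48, Mybpc2 from -1.25 to 2.26, Actn3 from -0.97 to 3.64, Cacna1s from -0.85 to 2.59, Atp2a1 from -1.24 to 2.54 and Ckm from -1.01 to 2.61.

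The developmental myosin ratio differed by -0.31 with the 5 and 6 week libraries, which are the libraries left without WT replicate 1. With each library left out it ran from -0.34 without Hpn-/- replicate 3 to 1.16 without Hpn-/- replicate 1. The slow troponin I ratio ran from -1.59 without Hpn-/- replicate 3 to 1.16 without Hpn-/- replicate 2. With each library left out, the ratio of Myh2 to the other fast chains ran from -2.59 to -1.33, that of Actn2 to Actn3 from -3.29 to -1.54 and that of Myh7 to the fast chains from -3.92 to -1.25. Depth limits the slow isoforms: Tnnt1, Tnni1 and Tnnc1 had under 10 counts in every library.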

Other observations

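Genes that anchor, innervate or specify muscle fibres did not follow the range of the muscle set. Of 13 genes of the dystrophin-glycoprotein complex, 10 were tested and 0 called by edgeR, 5 with higher and 5 with lower estimates. At an unadjusted p under 0.05 by edgeR there was 1 in each direction. Over all 12520 tested genes there were 498 higher and 363 lower. Dag1, which encodes dystroglycan, was at 59.8, 61.5 and 66.4 CPM in WT and 62.0, 55.6 and 63.8 in Hpn-/-. Of 12 neuromuscular junction genes, 5 were tested and 0 called. Against 363 of all 12520 genes, 2 of the 5 were lower at an unadjusted p under 0.05 by edgeR. One of these, the agrin receptor Lrp4, was at 3.63, 2.96 and 2.6 CPM in WT and 1.98, 2.84 and 0.991 in Hpn-/- (log2 fold change -0.72, SE 0.31, adjusted p 0.670 by edgeR). Of 15 regulators of fibre type and growth, 9 were tested and 0 called, 5 higher and 4 lower.

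Of 21 satellite cell and myogenic regulator genes, 7 were tested and 0 called, and 6 were at 0 in all libraries. The most abundant, Mef2d, was at 30.1 ± 1.36 CPM in WT and 31.7 ± 1.23 in Hpn-/- (SD, n = 3 each), and Myod1 had 2 counts in WT replicate 1 and 1 in Hpn-/- replicate 1.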
